A study of Homo sapiens with 8 samples.

Results

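Cyclins, cyclin-dependent kinases (CDKs) and cell division cycle genes were taken as every listed Ago2 peak whose gene symbol starts with CCNA, CCNB, CCND, CCNE, CCNF, CCNG or CCNT, with CDC or CDK followed by a digit, or with CDKN, together with WEE1. This rule reads symbols and uses no measured value. It found 349 of 22506 peaks, in 53 of 6326 genes. It also takes in genes that share only a name with the division cycle, such as the effectors of the GTPase CDC42.

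Ago2, the Argonaute protein that carries microRNAs to their target transcripts, was pulled down with its crosslinked RNA (CLIP, crosslinking and immunoprecipitation) from 293S cells, an adherent line derived from HEK293 human embryonic kidney cells. Cells had received emetine, a plant alkaloid that stalls ribosomes during elongation, at 20 µg/mL for 60 minutes, or were an untreated control. Each treatment was 1 culture, divided into 3 aliquots for CLIP with a different Ago2 antibody each and 1 aliquot for RNA-seq. This gave 3 CLIP libraries and 1 RNA library per treatment. P-values therefore measure the spread between aliquots and antibodies of single cultures, not between cultures. The sample titles give the same 3 antibodies for both treatments, so the CLIP libraries pair by antibody. The main test leaves this pairing out, since the antibody of each library below is not known.

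Cyclins bind CDKs and switch them on. D-type cyclins with CDK4 and CDK6 act before DNA replication, E-type cyclins with CDK2 at its onset, and A- and B-type cyclins up to mitosis. CDKN proteins block these kinases, WEE1 holds CDK1 back by phosphorylation, and the CDC25 phosphatases remove that phosphate. Several of these mRNAs are textbook microRNA targets, among them CCND1, CCNE1 and WEE1 for the miR-15/16 family, CDC25A and CDK6 for let-7, and CDKN1A for the miR-17 family. In 3′ UTRs Ago2 is guided to its sites by the microRNA seed, bases 2 to 8 from its 5′ end.

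The mature microRNAs of these 3 families are shown because their seeds decide which letters to look for in the 3′ UTRs of the member genes. They are written 5′ to 3′ as in RefSeq (build GRCh38.p14), with the seed in capitals.
let-7a-5p: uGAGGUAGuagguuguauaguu
let-7b-5p: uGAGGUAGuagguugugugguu
miR-15a-5p: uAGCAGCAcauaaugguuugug
miR-16-5p: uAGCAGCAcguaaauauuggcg
miR-195-5p: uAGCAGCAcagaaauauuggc
miR-17-5p: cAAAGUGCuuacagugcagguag
miR-20a-5p: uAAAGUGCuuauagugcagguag
miR-93-5p: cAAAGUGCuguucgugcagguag
Both let-7 members share 1 seed, as do the 3 of the miR-15/16 family and the 3 members of the miR-17 family.

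The letters that pair with these seeds are CTACCTC for let-7, TGCTGCT for miR-15/16 and GCACTTT for miR-17. They were searched on the transcript strand of whole annotated 3′ UTRs (GENCODE 29). In the members no match of 1 of these 3 motifs overlapped a match of another of the 3. A 3′ UTR could be matched for 51 of the 53 genes, and CDK6 was not among them. The miR-15/16 letters occurred in 19 of the 51 (37.3%), against 26.5% of the 5833 matched 3′ UTRs of all listed genes. The let-7 letters occurred in 7 (13.7%, against 10.9%) and the miR-17 letters in 12 (23.5%, against 26.6%). At least 1 of the 3 motifs lay in 25 (49.0%), against 46.7% of all. These shares describe letters in annotated transcripts. The peaks were listed on hg19 and their own sequence was not read, so whether a match lies under a peak was not tested.

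A selection of the matches in mRNAs that recur below is shown with its surroundings, 28 bases each, 5′ to 3′ on the transcript strand, with the 7 matching letters in capitals.
WEE1, miR-15/16, first match: accactgtggtggtgTGCTGCTtatagt
WEE1, miR-15/16, second match: attgccttgtgaattTGCTGCTatttta
WEE1, miR-17: tatatcccactgggaGCACTTTgtaggc
CCND1, miR-15/16: ctctttcacattgttTGCTGCTattgga
CCND1, miR-17: ccattccatttccaaGCACTTTcagtcc
CCND2, miR-15/16: atgtttcacagagtgTGCTGCTatttta
CCND2, miR-17: cattccattcgaaaaGCACTTTgaaaaa
CCNE1, miR-15/16, first match: agtgcgtgctcccgaTGCTGCTatggaa
CCNE1, miR-15/16, second match: gaactgttttgtaagTGCTGCTatatct
CDC25A, let-7, first match: ttccatgccttaaacCTACCTCccacac
CDC25A, let-7, second match: ttattatcccagggaCTACCTCggcttt
CDC25A, miR-15/16, first match: gaagttacacagaaaTGCTGCTggccaa
CDC25A, miR-15/16, second match: ctgtggtactggggcTGCTGCTatttaa
CDKN1A, let-7: aagggcaccctagttCTACCTCaggcag
CDKN1A, miR-17, first match: agaagtaaacagatgGCACTTTgaaggg
CDKN1A, miR-17, second match: cctccccagttcattGCACTTTgattag
The 2 WEE1 matches for miR-15/16 begin at bases 265 and 544 of its 3′ UTR of 1382 bases, and the miR-17 match lies between them at base 480. In CCND1 and CCND2 the miR-17 match comes first, at bases 1014 and 968, and the miR-15/16 match follows at bases 2033 and 1764.

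Reads of single libraries could be worked out for all 349 peaks from what the authors deposited. The member peaks held 482, 2145 and 2076 reads in emetine libraries 1 to 3 and 404, 2349 and 2105 reads in control libraries 1 to 3. This was 1.18%, 2.04% and 2.13% of the reads in listed peaks with emetine and 1.02%, 1.99% and 2.03% in the control. Library 1 of each treatment stood apart from the others of its treatment: it had the fewest reads, and exons of noncoding transcripts took 45.4% of its reads with emetine and 42.9% in the control, against 6.40% to 13.8% in the other 4 libraries. Which antibody belongs to which library was not assigned. NEFL and VIM, of 6 markers of the HEK293 lineage, had peaks, and 0 of 9 markers of other cells did. Intervals below are exact binomial intervals for depth-scaled ratios of read totals. They cover counting error only and leave out the spread between libraries. They are too narrow where reads were copied by PCR or counted in overlapping peaks, since such reads do not stand for separate molecules.

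Ago2 lay on the member transcripts mostly in 3′ UTRs. Of the 349 peaks, 263 (75.4%) were in 3′ UTRs, against 57.6% of all listed peaks, 64 (18.3%) in coding sequence, against 33.2%, and 22 (6.30%) in 5′ UTRs, against 4.95%. None was in a noncoding exon. The 3′ UTR share leaned on few genes. CCND2, CCND1, CDK6 and CDKN1A had 56, 32, 24 and 17 of the 349 peaks, nearly all of them in 3′ UTRs. WEE1, in contrast, had 16 of its 36 peaks there. The median width was 32 nt, against 30 nt over all peaks. Reads were concentrated in few genes: WEE1, CCND2, CCND1, CDKN1B, CDK16, CDK6 and CDKN1A held 6947 of 9561 reads (72.7%) in 210 peaks, while 17 genes had fewer than 20 reads. A gene had reads in all 6 libraries in 13 of 53 cases, against 21.9% of all genes. Peaks with reads in 1 library only numbered 51 (14.6%), against 26.5% of all peaks, and peaks with reads in all 6 libraries numbered 36 (10.3%), against 4.80%. There were 44 peaks without emetine reads, against 20.2% of all peaks, and 42 without control reads, against 17.7%. Peaks of 1 gene share their transcript, and 53 of them overlap a peak of the same gene with more reads, so they are not independent observations. Read numbers were identical to those of the neighbour in 7 peaks. Gene sums and read totals add all peaks, so reads in overlapping peaks may be counted more than once.

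**Figure D1:**
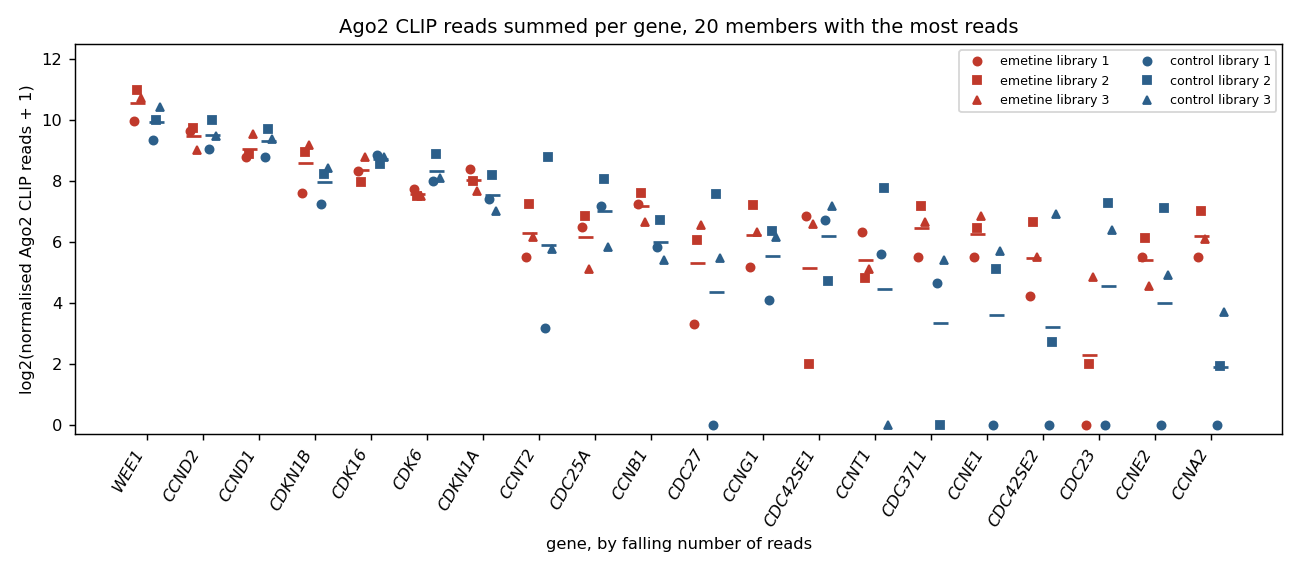
Normalised Ago2 CLIP reads summed over the peaks of a gene, as log2(value + 1), for the 20 members with the most reads (x axis, by falling number of reads). Red symbols are the 3 emetine libraries and blue symbols the 3 control libraries, the shape gives only the number of the library, and bars are means; WEE1 has emetine values of 1010, 2036 and 1712 before the logarithm, against 648, 1022 and 1381 in the control, and only CCNA2, CDC37L1 and CDK6 of these genes have treatments that do not overlap.

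No member gene or member peak passed the test between emetine and control. In limma, 0 of 349 member peaks and 0 of 53 gene sums had an adjusted p under 0.05, and the share over all features was 0% of 22489 peaks and 0% of 6321 genes. At an unadjusted p under 0.05, 4 member peaks were higher with emetine, where the share over all peaks was 0.769%, and 0 were lower, where it was 0.298%. Among gene sums 2 were higher by that measure, CCNA2 and CDC37L1 (1.08% of all genes), and 0 lower (0.759%). With limma-voom these counts were 3 and 1 for the peaks and 4 and 0 for the gene sums, and 0 members passed after adjustment. The smallest adjusted p among the members was 0.784 for a peak and 0.799 for a gene. Standard errors were wide, with a median of 1.95 for the log2 changes of the member genes and 2.00 for those of all genes.

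Directions were mixed. Of the 349 peaks, 185 (53.0%) had a log2 change above 0, against 50.2% of all peaks, and 164 one below 0, against 49.8%, with a median of 0.23 against 0.01. Of the 53 gene sums, 30 were above 0, against 51.1% of all genes, with a median log2 change of 0.31 against 0.04. The libraries of the 2 treatments did not overlap for 13 peaks that were higher with emetine (2.55% of all peaks) and 6 that were lower (1.43%). For gene sums this held for 3 higher genes, CCNA2, CDC37L1 and CDC40 (3.01% of all genes), and 1 lower gene, CDK6 (2.18%). The medians turned on single libraries: without control library 1 they were -0.16 for peaks and -0.29 for genes, and without emetine library 3 both were 0.

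**Figure D2:**
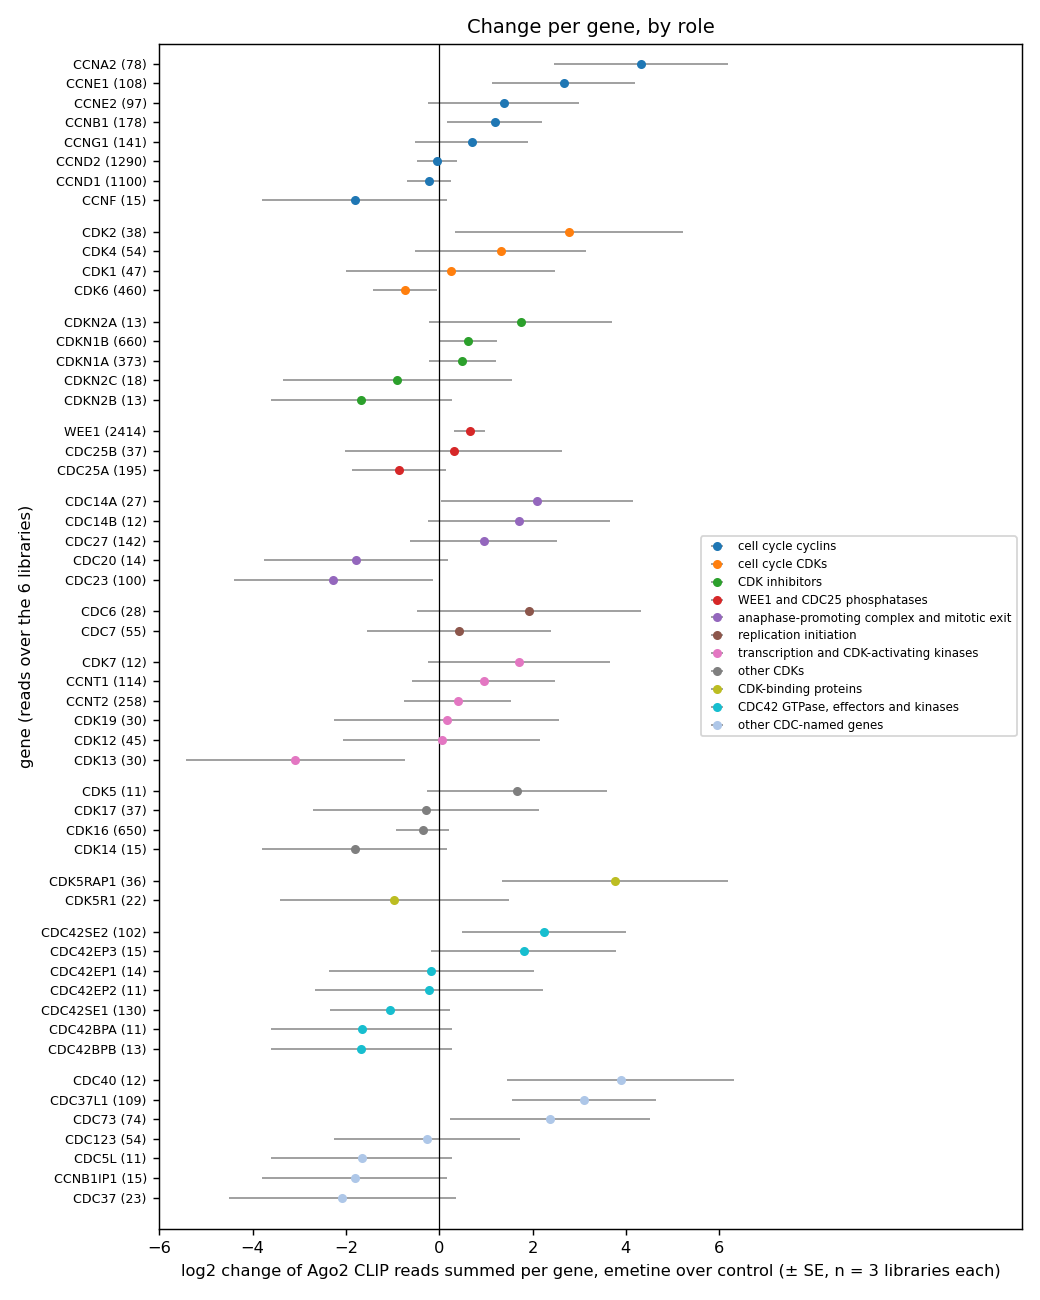
Log2 change of Ago2 CLIP reads summed per gene, emetine over control, with its standard error (x axis), for all 53 genes ordered by role and size of change, with the reads over 6 libraries in brackets. Bars of WEE1, CCND1 and CCND2 are short, CCNA2 has the highest value at 4.32, CDK13 the lowest at -3.09, and none passed the test.

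The mitotic brake WEE1 carried the most reads of any member, over 36 peaks. Its sums held 114, 678 and 610 reads in emetine libraries 1 to 3, against 81, 362 and 569 reads in control libraries 1 to 3. After normalisation these were 1010, 2036 and 1712 with emetine, against 648, 1022 and 1381 in the control. The highest control value lies above the lowest emetine value, so the treatments overlap. Within the shallow libraries the emetine value was the higher one, and both deeper emetine values lay above both deeper control values. The mean was 1586 ± 524 with emetine and 1017 ± 366 in the control (SD, n = 3 each). The log2 change was 0.65 (SE 0.34; limma adjusted p = 0.799), and the ratio of read totals was 1.54 (95% interval 1.42 to 1.67). Of its peaks, 29 had a log2 change above 0 and 7 below. WEE1 RNA was covered by 1209 emetine and 398 control reads, a log2 ratio of 0.26 after scaling (95% interval 0.09 to 0.43).

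The deepest WEE1 peak, in the 3′ UTR at chr11:9610595-9610665, had normalised values of 195, 487 and 337 with emetine against 136, 299 and 267 in the control. Its 304 emetine and 233 control reads were 22.2% of those of the gene. The peak at chr11:9610823-9610906, also in the 3′ UTR, held 17, 72 and 85 emetine reads against 9, 19 and 34 control reads, a ratio of 3.12 (95% interval 2.32 to 4.24). Its emetine values all lay above its control values, whereas those of the deepest peak overlapped. Downstream, at chr11:9611052-9611109, 10, 90 and 54 reads stood against 3, 20 and 69, where control library 3 lay within the range of the emetine libraries after normalisation. A coding peak at chr11:9606829-9606881 held 2, 17 and 10 reads with emetine, against 0, 0 and 4 in the control. In limma the adjusted p was 0.915 for the deepest of these peaks and 0.784 for each of the other 3. Of the WEE1 peaks 16 lay in the 3′ UTR, 15 of them above 0, 15 in coding sequence, 11 of them above 0, and 5 in the 5′ UTR, 3 of them above 0.

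Of the CDC25 phosphatases, which undo the work of WEE1, CDC25A had fewer reads with emetine. It held 10, 38 and 12 reads over 9 peaks with emetine, against 18, 94 and 23 in the control. Normalised values overlapped, from 33.7 to 114 with emetine and from 55.8 to 265 in the control. The ratio of totals was 0.494 (95% interval 0.358 to 0.674) and the log2 change -0.87 (SE 1.01; limma adjusted p = 0.799). Its 3′ UTR peak at chr3:48199255-48199305 held 0, 1 and 1 reads with emetine against 1, 19 and 4 in the control. CDC25A RNA had a log2 ratio of 0.16 (95% interval -0.01 to 0.34). CDC25B had 4, 1 and 1 reads with emetine against 0, 30 and 1 in the control, so control library 2 held nearly all of it.

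**Figure D3:**
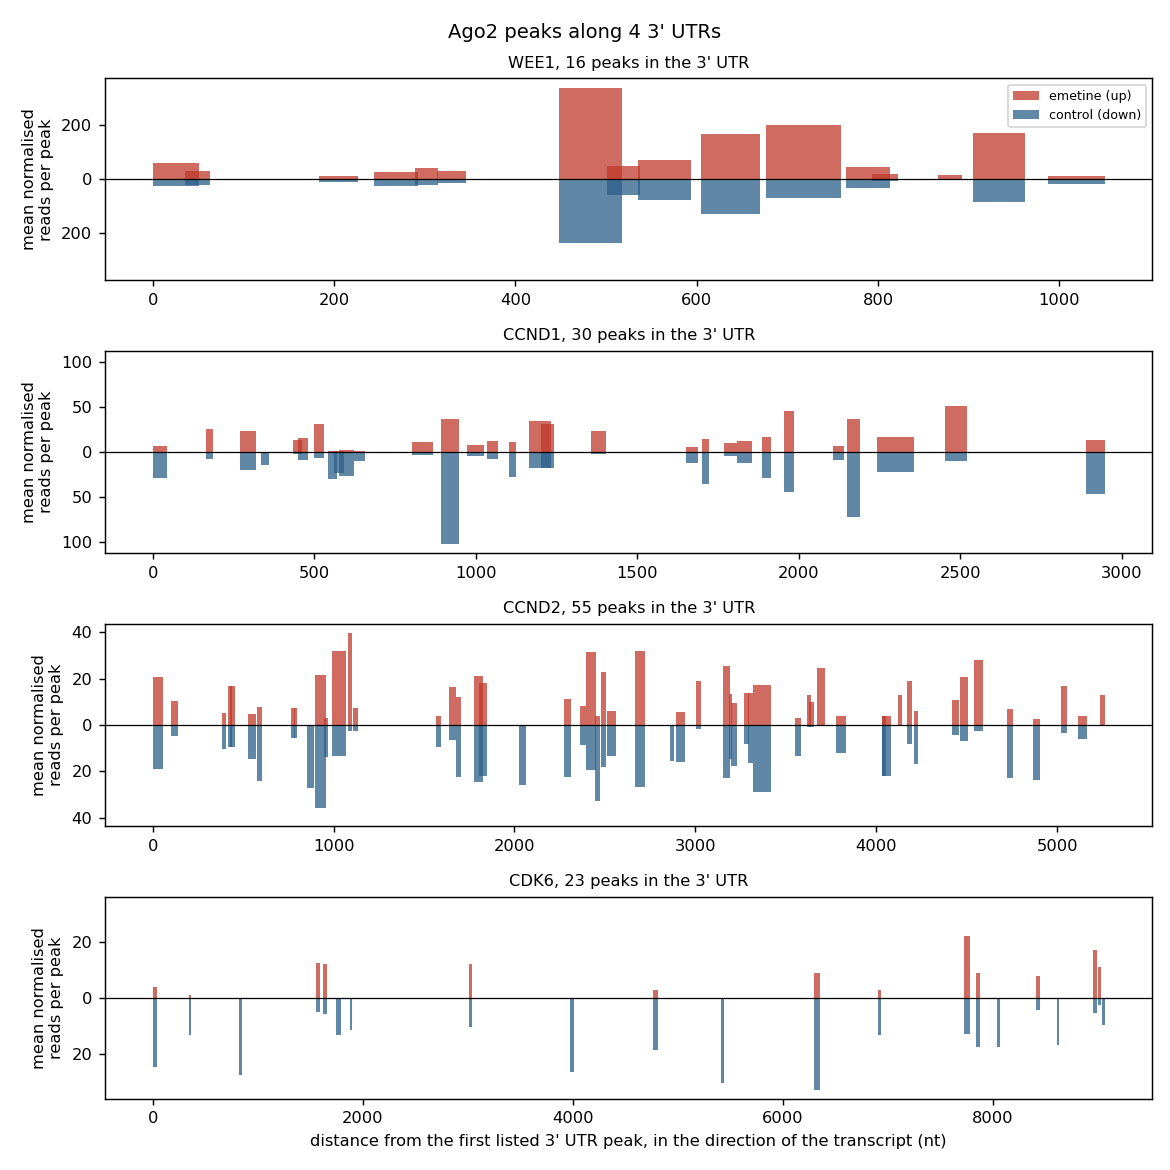
Mean normalised Ago2 CLIP reads of each 3′ UTR peak of WEE1, CCND1, CCND2 and CDK6, emetine drawn upward in red and control downward in blue, against the distance in nt from the first listed 3′ UTR peak of the gene. Bar widths are peak widths. The 16 WEE1 peaks are dominated by a few tall peaks, higher with emetine in most cases, whereas the 30 CCND1, 55 CCND2 and 23 CDK6 peaks alternate in direction.

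Among the cyclins, 8 genes had 113 peaks, of which 57 were above 0 and 56 below, and 5 of the 8 gene sums were above 0. No gene of this group passed. The D-type cyclins had reads in every library and log2 changes near 0. CCND2 held 90, 286 and 186 reads over 56 peaks with emetine, against 66, 366 and 296 in the control, a log2 change of -0.04 (SE 0.43; limma adjusted p = 1.0). That sign turned without emetine library 3 (0.18) or control library 2 (0.20). CCND1 held 50, 156 and 264 reads over 32 peaks, against 55, 298 and 277, a log2 change of -0.23 (SE 0.47; limma adjusted p = 0.929). The treatments of both genes overlap. Their RNA log2 ratios were -0.19 (95% interval -0.33 to -0.06) for CCND2 and -0.02 (-0.26 to 0.23) for CCND1.

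Within these long 3′ UTRs single peaks went opposite ways. The deepest CCND1 peak, chr11:69467012-69467067, held 7, 3 and 14 reads with emetine against 8, 53 and 38 in the control, a ratio of 0.269 (95% interval 0.165 to 0.424). Its normalised emetine values all lay under its control values. For CCND2, the peak at chr12:4413754-4413803 held 4, 3 and 14 reads with emetine against 1, 0 and 0 in the control. Further downstream, the peak at chr12:4414076-4414119 held 0, 0 and 3 reads against 6, 5 and 4. Neither pair of treatments overlapped, and the directions were opposite within 1 transcript. The limma adjusted p was 0.784 for each of these 3 peaks.

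The later cyclins had fewer reads than the D-type cyclins. CCNA2, the cyclin of DNA replication and early mitosis, had 1 peak, in coding sequence at chr4:122739244-122739275. It held 5, 43 and 24 reads with emetine, against 0, 1 and 5 in the control. All emetine values lay above all control values. The log2 change was 4.32 (SE 1.87; limma adjusted p = 0.799 as a gene sum), the largest of the member genes, and the ratio of totals was 13.3 (95% interval 5.84 to 37.5). CCNA2 RNA had a log2 ratio of 0.02 (95% interval -0.20 to 0.24).

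CCNB1, the cyclin of mitotic entry, held 17, 64 and 36 reads with emetine against 7, 37 and 17 in the control, over 6 peaks with none in the 3′ UTR. Its log2 change was 1.19 (SE 1.01; limma adjusted p = 0.799) and the ratio of totals 2.13 (95% interval 1.55 to 2.95). Normalised values ran from 101 to 192 with emetine and from 41.3 to 104 in the control, so they overlap by the margin of 1 library. Of its 6 peaks 3 were above 0 and 3 below, and of the 5 in coding sequence 3 were above and 2 below. The deepest peak, in coding sequence at chr5:68471250-68471310, held 9, 31 and 7 reads against 3, 1 and 5, and its normalised values overlapped. In the coding peak beside it, at chr5:68471315-68471348, they did not overlap, with 8, 27 and 10 reads against 2, 4 and 1.

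CCNE1, which starts DNA replication with CDK2, held 5, 29 and 41 reads with emetine against 0, 12 and 21 in the control, a ratio of 2.53 (95% interval 1.66 to 3.93) and a log2 change of 2.67 (SE 1.53; limma adjusted p = 0.799). All 6 of its peaks were in the 3′ UTR, and 5 were above 0. Control library 1 had no CCNE1 reads, and with 1 library left out the log2 change ranged from 0.86 to 3.71. Its paralog CCNE2 had 5, 23 and 8 reads with emetine against 0, 49 and 12 in the control, and here the log2 change of 1.38 and the ratio of totals of 0.656 point opposite ways. CCNG1, a cyclin induced by p53, had 4, 49 and 28 reads against 2, 29 and 29, with overlapping treatments. CCNF, a ubiquitin ligase subunit, had 0 reads with emetine against 15, all in control library 2. The CCNF value rests on that library.

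Of the CDKs that drive the cycle, CDK6 had most of the reads, 460 of 599. It held 24, 60 and 65 reads over 24 peaks with emetine, against 32, 166 and 113 in the control. Normalised values were 213, 180 and 182 with emetine, against 256, 469 and 274 in the control. All emetine values lay under all control values, the only gene sum among the members lower in this way. The ratio of totals was 0.532 (95% interval 0.435 to 0.649) and the log2 change -0.74 (SE 0.68; limma adjusted p = 0.799). CDK6 RNA had 1584 and 666 reads, a log2 ratio of -0.10 (95% interval -0.23 to 0.04).

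The CDK6 peaks also went both ways, 9 above 0 and 15 below. At chr7:92237937-92237990 there were 0, 7 and 2 reads with emetine against 5, 11 and 11 in the control. At chr7:92235657-92235681 there were none with emetine against 1, 14 and 1, which is at least 4.80-fold lower when 3 reads over the 3 emetine libraries are taken as the floor. In the opposite direction the peak at chr7:92237535-92237537, only 2 nt wide, held 4, 1 and 12 reads with emetine and none in the control, at least 6.30-fold higher with the same floor for the control libraries. CDK4, CDK2 and CDK1 had 54, 38 and 47 reads in all. CDK2 held 0, 20 and 15 reads with emetine against 0, 0 and 3, CDK4 held 5, 17 and 3 against 0, 18 and 11, and CDK1 held 0, 5 and 20 against 0, 18 and 4. Each of these 3 genes lacked reads in at least 1 control library.

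The CDK inhibitors had 41 peaks in 5 genes, 30 above 0 and 11 below, and 0 passed. CDKN1A and CDKN1B held 15 and 14 of the peaks above 0. By gene sum 3 of the 5 genes were above 0 and 2 below. CDKN1B, which encodes p27, held 22, 166 and 205 reads over 21 peaks with emetine, against 19, 105 and 143 in the control. Normalised values overlap, from 195 to 575 with emetine and from 152 to 347 in the control. The ratio of totals was 1.64 (95% interval 1.40 to 1.92) and the log2 change 0.61 (SE 0.62; limma adjusted p = 0.799). Its RNA had a log2 ratio of 0.58 (95% interval 0.18 to 0.99), from 1 library per treatment. A relation between the RNA ratio and the CLIP change was not tested.

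CDKN1A, which encodes p21 and is a target of p53, held 38, 85 and 73 reads with emetine against 21, 103 and 53 in the control, all in 17 peaks of the 3′ UTR. Its log2 change was 0.49 (SE 0.72; limma adjusted p = 0.868), the ratio of totals 1.23 (95% interval 0.999 to 1.52), and 15 of its 17 peaks were above 0. Control library 2 was above 2 of the 3 emetine libraries. CDKN1A RNA went the other way, with 100 and 53 reads and a log2 ratio of -0.43 (95% interval -0.92 to 0.08), an interval that includes 0. CDKN2A, CDKN2B and CDKN2C had 13, 13 and 18 reads, those of CDKN2A in emetine library 3 alone and those of CDKN2B in control library 3 alone.

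Subunits and partners of the anaphase-promoting complex, the ubiquitin ligase that ends mitosis, had 17 peaks in 5 genes. CDC23 held 0, 1 and 10 reads with emetine against 0, 55 and 34 in the control, a ratio of 0.137 (95% interval 0.066 to 0.258) and a log2 change of -2.27 (SE 2.13; limma adjusted p = 0.799). Library 1 had no reads in either treatment, so the treatments overlap. CDC27, which has near-identical copies in the genome that may share its reads, held 1, 22 and 33 reads with emetine against 0, 68 and 18 in the control. The phosphatases CDC14A and CDC14B had reads in emetine library 3 alone, 27 and 12 of them. The 14 reads of CDC20, the activator, were in control library 2 alone. Of the replication genes, CDC7, the kinase that fires origins, held 0, 28 and 17 reads with emetine against 2, 2 and 6, and CDC6, which loads the helicase, 3, 21 and 0 against 4, 0 and 0.

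Kinases and cyclins of transcription had 25 peaks in 6 genes, 9 peaks above 0 and 16 below. Their gene sums leaned the other way, 5 above 0 and 1 below. CCNT2 and CCNT1 are the cyclins of the elongation kinase CDK9, which had no listed peak. CCNT2 held 5, 50 and 25 reads with emetine against 1, 155 and 22 in the control. Its log2 change of 0.39 (SE 1.15) and its ratio of totals of 0.499 (95% interval 0.379 to 0.654) have opposite directions, since control library 2 held most of the control reads. CCNT1 held 9, 9 and 12 reads with emetine against 6, 78 and 0, and again 1 control library set the total. Its log2 change of 0.95 (SE 1.53) and its ratio of totals of 0.397 (95% interval 0.252 to 0.609) also had opposite directions. CDK13, a kinase of the RNA polymerase II tail, held 0, 0 and 5 reads against 1, 10 and 14, a log2 change of -3.09 (SE 2.34). The limma adjusted p was 0.964 for CCNT2, 0.893 for CCNT1 and 0.799 for CDK13.

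Outside the cycle proper, CDK16, a kinase of the PCTAIRE group, held 36, 84 and 159 reads over 24 peaks with emetine against 58, 133 and 180 in the control. Its log2 change was -0.36 (SE 0.57; limma adjusted p = 0.892). Normalised values ran from 252 to 446 with emetine and from 375 to 464 in the control. The treatments overlap. The CDK14 reads, 15 in number, were in control library 2 alone. CDK5RAP1, an enzyme that modifies mitochondrial tRNA, had 0, 24 and 12 reads with emetine and none in the control, at least 13.3-fold higher against the floor.

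The CDC42 effectors and kinases had 20 peaks in 7 genes, 7 above 0 and 13 below. CDC42SE1 held 13, 1 and 34 reads with emetine against 13, 9 and 60, and CDC42SE2 held 2, 33 and 16 against 0, 2 and 49, both with overlapping treatments. CDC42 itself had no listed peak. Among the other genes named CDC, CDC37L1, a relative of the kinase chaperone CDC37, held 5, 48 and 36 reads with emetine against 3, 0 and 17 in the control. Its normalised values did not overlap, from 44.3 to 144 with emetine and from 0 to 41.3 in the control. The ratio of totals was 4.95 (95% interval 3.02 to 8.48) and the log2 change 3.10 (SE 1.55; limma adjusted p = 0.799). CDC40, a splicing factor, held 5, 1 and 6 reads in 1 coding peak with emetine and none in the control, at least 4.44-fold higher against the floor. The ubiquitin ligase CCNB1IP1 had 0 reads with emetine and 15 in control library 2.

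Coding peaks took a larger share of the member reads with emetine. The coding share was 14.7%, 16.3% and 15.8% in emetine libraries 1 to 3, against 12.9%, 11.2% and 11.3% in control libraries 1 to 3. Every emetine library lay above every control library, and the means were 15.6% ± 0.815 and 11.8% ± 0.951 (SD, n = 3 each). With 3 libraries against 3 no exact permutation test can go below a two-sided p of 0.1. Without WEE1 the shares were 15.8%, 17.7% and 14.9% with emetine against 12.1%, 12.3% and 10.0%, again without overlap. Over all listed peaks outside noncoding exons, where no member peak lies, the coding share was 31.5%, 36.4% and 33.0% with emetine against 30.5%, 29.0% and 27.8% in the control, also without overlap. The difference between the members and all peaks was not tested.

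By peak, 38 of 64 coding members (59.4%) were above 0, against 54.6% of all coding peaks. Their median log2 change was 0.65, against 0.29 over all coding peaks. In 5′ UTRs 14 of 22 (63.6%) were above 0, against 53.2% of all such peaks, with a median of 0.73 against 0.19. In 3′ UTRs 133 (50.6%) were above 0, against 47.2%, and 130 below, with a median of 0.07 against -0.17. The WEE1 coding peaks, 15 in number, make up much of the coding group. Outside WEE1 27 of 49 were above 0 with a median of 0.60, beside the 54.6% of all coding peaks. Coding peaks of CCND1, CDKN1B and CDK5RAP1 were all above 0, at 2 of 2, 3 of 3 and 2 of 2, whereas those of CCNT1 and CDK13 were all below, at 3 of 3 and 2 of 2. The coding median was 0 without emetine library 3 and 1.33 without control library 3.

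**Figure D4:**
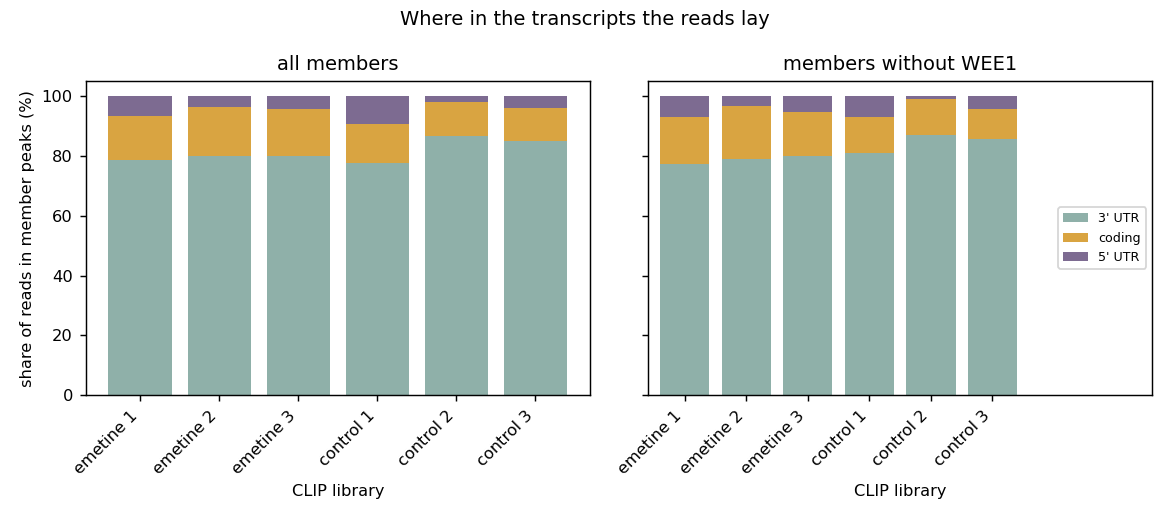
Share of the reads in member peaks (y axis, %) that lay in 3′ UTRs, coding sequence and 5′ UTRs in each CLIP library, emetine libraries left of control libraries, for all members and without WEE1. The coding band is 14.7% to 16.3% in the emetine libraries and 11.2% to 12.9% in the control libraries for all members.

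RNA-seq had 1 library per treatment, so the RNA differences of the member genes have no replicate check and were not tested. In bulk RNA, fewer cells with a transcript and less of it per cell cannot be told apart. Of 51 members with 50 or more RNA reads, 35 had a ratio above 0 on the log2 scale, against 50.9% of all genes, with a median of 0.12 against 0.01. Only CDK7 exceeded 1 (0.843% of all genes), and 0 members were below -1 (0.792%). The counting interval lay above 0 for 12 members (13.8% of all genes) and below 0 for 6 (13.7%).

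CDK7, the kinase that activates other CDKs, had 56 emetine and 10 control reads, a log2 ratio of 1.13 (95% interval 0.16 to 2.28). CCNE2 followed at 0.84 (95% interval 0.42 to 1.29), CDC14A at 0.80 (0.22 to 1.43) and CCNF at 0.72. At the other end CDK4 had 207 and 132 reads, a log2 ratio of -0.69 (95% interval -1.02 to -0.37). CDC42EP1 was at -0.55, CDK1 at -0.43 and CDKN2B at -0.41, the last with an interval that includes 0. In the authors' deposited table, whose ratios are relative to RNA, the member peaks had a median of 0.04 on the log2 scale, against 0.05 over all peaks.

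**Figure D5:**
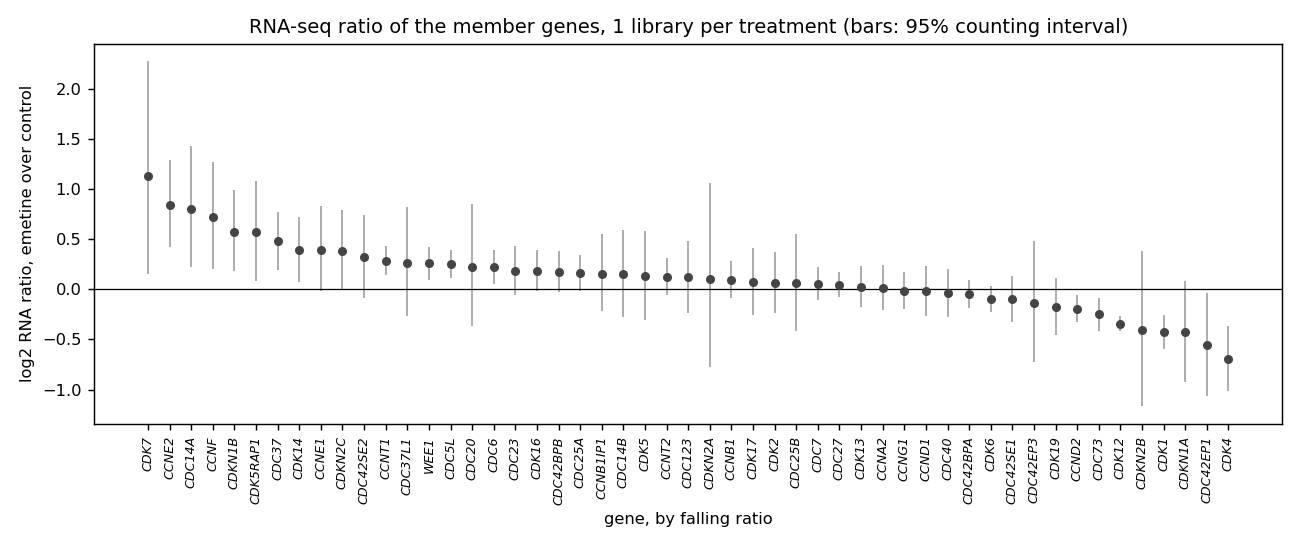
Log2 RNA-seq ratio, emetine over control, of the 51 member genes with at least 50 reads (x axis, by falling ratio), 1 library per treatment. Points are ratios after scaling and bars are exact 95% intervals for counting error; CDK7 is highest at 1.13 and CDK4 lowest at -0.69.

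A list of 57 other regulators of the cycle, from checkpoint kinases to the retinoblastoma and ubiquitin ligase genes, had peaks in 42 genes. In limma 0 of these genes passed, 16 were above 0 and 26 below, with a median log2 change of -0.27, against 0.04 over all genes. CUL1, the scaffold of the SCF ubiquitin ligases, held 6, 37 and 13 reads with emetine against 1, 0 and 0 in the control, a log2 change of 4.88 (limma adjusted p = 0.799). LIN9, of the complex that switches mitotic genes, held 4, 26 and 29 reads against 2, 0 and 6. CHEK1, a checkpoint kinase that acts upstream of CDC25A and WEE1, held 12, 44 and 30 reads with emetine against 19, 155 and 82 in the control, with no overlap and a log2 change of -1.15 (limma adjusted p = 0.799). CCNC, a cyclin of the Mediator complex, held 0, 0 and 12 reads against 1, 15 and 13.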

How the data were processed

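The authors deposited 1 table of peaks with, per the file headers, position, region, gene, transcript, an average and an emetine to no emetine ratio as natural log values; the log base was read from the values. The submitters' processing notes name hg19, Bowtie 0.12.8, TopHat and DESeq, without roles. No column holds a single library. Adding and subtracting 0.5 times the ratio gave 1 value per treatment, which is ln(1 + reads × factor), averaged over 3 CLIP libraries, less that term for RNA. Factors and whole reads were searched within 5e-14 and recovered for 22489 of 22506 peaks (99.9%); the 17 others held no member and were left out. Of 2528 peaks with shifted values, 14 emetine and 13 control values found a match by chance. Recovery and the fit were tested on simulated data. One read was worth 8.86, 3.00 and 2.81 in emetine libraries 1 to 3, 8.00, 2.82 and 2.43 in control libraries 1 to 3, and 2.51 and 6.37 in the emetine and control RNA libraries.

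Libraries are numbered by falling value of 1 read, not from the labels. Log2(reads × factor + 1) was fitted with limma 3.58.1 (R 4.3.3), trend, treatment alone, over all peaks and all gene sums, with Benjamini-Hochberg adjustment at 0.05. Ratios of read totals were scaled by depth in scipy 1.17.1 (Python 3.11.15). RNA ratios used at least 50 reads. Seed letters under peaks were not read, since a genome of the build was not used here; whole 3′ UTRs of matched GENCODE 29 transcripts were searched instead. Coordinates are printed as listed. The genes named are the 20 with the most reads, the 6 with the smallest p per direction, the gene with the most reads of each role, the 8 member peaks with the smallest p per direction, 5 RNA ratios per direction and 2 other regulators per direction; further ones named beside them were chosen after their values were seen. Members and lists were chosen with earlier results of these data known.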

Additional observations from a re-analysis of the deposited data

How the results depend on the processing

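With 5 added before the logarithm 1 member peak and 1 gene sum were higher at an unadjusted p under 0.05, with total-read scaling 2 and 1, and with depth class as a covariate 9 and 4, with 1 peak lower. Limma-voom gave 4 gene sums higher and 1 peak lower, and 3′ UTR peaks alone gave 1 gene sum higher. In each of these, 0 members passed after adjustment. The same held where only 1 of overlapping peaks was kept. The median log2 change of peaks was 0.38 where 3 or more libraries had reads and 0.044 relative to RNA, and the 3′ UTR median was -0.11 as a ratio of read totals. CCNT2 was at -0.069 under limma-voom and 0.39 in the limma fit reported. The cause of these shifts was not tested. Each of 27 named genes had a value in 8 to 10 alternatives with all libraries, and CCNT2 was the only one to turn its sign there. With any 1 library left out 16 kept their sign, 8 turned it and CCNB1IP1, CCNF and CDK14 reached 0.

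Leaving out 1 library at a time gave 3 to 7 peaks higher and 0 to 3 lower at an unadjusted p under 0.05, and 0 to 3 gene sums higher and 0 to 1 lower; 0 gene sums were higher by that measure without emetine library 2 or 3. The median log2 change ranged from -0.16 to 0.43 for peaks, -0.29 to 0.82 for gene sums, -0.28 to 0.31 for 3′ UTR peaks and 0.0 to 1.33 for coding peaks, and the share above 0 from 46.7% to 56.4% of peaks and 45.3% to 58.5% of genes. Ranges that crossed 0 were -0.97 to 1.83 for CCNT2, -1.91 to 0.51 for CDC42SE1, -0.79 to 2.42 for CDC7, -0.28 to 0.20 for CCND2, -0.62 to 2.94 for CCNE2, -0.027 to 1.22 for CCNG1, -1.23 to 2.57 for CDC27 and -1.28 to 2.61 for CCNT1; WEE1 stayed between 0.36 and 0.94. In an alternative chosen after seeing the data, libraries of the same number entered limma as a replicate block. It gave 11 member peaks higher and 2 lower and 3 gene sums higher at an unadjusted p under 0.05, and 0 members passed after adjustment (2 of all peaks and 1 of all genes did). Deviations of same-numbered libraries from their treatment means correlated at 0.14, 0.041 and 0.040 over peaks, where every library correlated best with its own number, and at 0.17, 0.056 and 0.021 over gene sums. Over gene sums control library 3 correlated better with emetine library 2 (0.048) than with emetine library 3. Over peaks emetine library 2 and control library 3 correlated at 0.033, not far below their own numbers. The numbers come from depth and not from the labels, so this pairing by number is a hint from the data. By the labels the libraries pair by antibody, and whether the numbers follow that pairing is not known. Of the 53 genes, 17 had fewer than 20 reads over 6 libraries.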
